A study of Mus musculus with 2 samples.

Results

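The genes described here are 10 markers of the endothelium of the liver, out of 31709 gene names on the array. They were chosen by name, and every non-control probe carrying one of these names was taken, which gave 12 of 39429 probes. Lyve1, Stab1, Stab2, Clec4g, Fcgr2b and Gata4 mark sinusoidal endothelium, Kdr, Cdh5 and Pecam1 mark endothelium of all vessels, and Cd34 marks continuous capillaries. All 10 genes were well above background on both arrays with at least 1 probe, so each marker was detected in both livers. In RNA of whole liver this does not show which cells a signal came from.

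Each group was 1 array of liver RNA from C57BL/6 mice, labelled with Cy3. The first liver was wild-type, and the second came from a mouse with the genotype Alb-Cre;CAG-floxed neo-Snail. In Alb-Cre mice the recombinase is under the albumin promoter, a hepatocyte promoter that endothelium does not use, and CAG is a ubiquitous promoter that here drives Snail after Cre has removed the neo cassette. The sources used here state neither the age and sex of the mice nor how many were behind each sample. Snai1, the gene of Snail, had 1 probe, with an unscaled signal of 23.2 in wild-type liver against 22.3 in the other liver. Once scaled as described below, its log2 difference was -0.44. The sources used here do not say whether that probe lies in the part that the transgene carries, so it checks nothing, and this sample is referred to as the Snail-labelled library.

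Liver sinusoids are lined by a fenestrated endothelium with no continuous basement membrane, whose cells take up waste from blood through scavenger and Fc receptors. GATA4 is a transcription factor that maintains this sinusoidal identity. In chronic liver disease the sinusoids can become more like ordinary capillaries, with CD34 on their surface and a basement membrane below them, a process called capillarization.

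The array probes that the differences rest on are given here by the first 30 of their 60 bases, 5′ to 3′, so that the measured transcript region can be located. Positions are on mm9, the build named in the file headers, and the files give a transcript accession for each probe but no exon or UTR annotation. For Lyve1 the probe lay at chr7:117994171-117994230 on the minus strand, and for Gata4 at chr14:63817858-63817917 on the minus strand. Cd34 had probe 1 at chr1:196787392-196787451 and probe 2 at chr1:196785280-196785339, both on the plus strand, so probe 2 lay 2112 bases further upstream. Kdr had probe 1 at chr5:76329309-76329368 and probe 2 at chr5:76330395-76330454, both on the minus strand, with probe 2 lying 1086 bases further upstream. The Stab2 probe, which stands for the markers with small differences, lay at chr10:86303982-86304041 on the minus strand.
Lyve1: cactttgtgtgcctttaacaaatacattat
Gata4: tagcttcgaaccaagattctgttgtaatca
Cd34 probe 1: ccagagatgagaggattgggtgtattctct
Cd34 probe 2: taaacaagatatcgggagccaccagagcta
Kdr probe 1: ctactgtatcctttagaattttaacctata
Kdr probe 2: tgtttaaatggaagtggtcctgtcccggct
Stab2: taagcaccaaaggcaaggcttcatcccata

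Signals called scaled are expressed so that 1 is the 75th percentile of non-control spots on an array. That percentile was 232.7 on the wild-type array against 302.1 on the other. Signals not called scaled, and the limits of signal bands, are unscaled. The ratio of a pair of unscaled signals is therefore not the fold given beside it. Differences are log2 differences of scaled signals, the Snail-labelled library minus wild-type. With 1 array a group there was no replicate of a liver, so no test was possible and p-values are left out. Genes were counted as higher or lower by a fixed size of 2-fold. The technical spread is the median SD, over probes printed several times, of spot-by-spot log2 differences, for the band of signal in which the dimmer array lies. It was 0.18 at signals under 100, 0.06 from 100 to 1000 and 0.04 above that, and it holds no difference between animals. In RNA of whole liver, fewer cells of a type and less RNA per cell cannot be told apart.

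Of the 10 markers, 2 reached 2-fold upwards in the Snail-labelled library and 0 reached it downwards. Over all 15420 genes measured on both arrays the upward share was 3.98% and the downward share 6.33%. The markers were chosen with earlier results of these data known, so these shares are not a test of them. Counted by probe, 2 of the 11 measured marker probes were 2-fold up, against 3.75% of 19046 measured probes, and 0 were 2-fold down, against 6.16%. The higher genes were Lyve1, a sinusoidal marker, and Cd34, the capillary marker. For 7 of the 10 genes the log2 difference was smaller than 0.5 in size, as it was for 69.8% of all measured genes. The median over the 10 markers was 0.04, beside -0.03 over all measured genes.

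**Figure D1:**
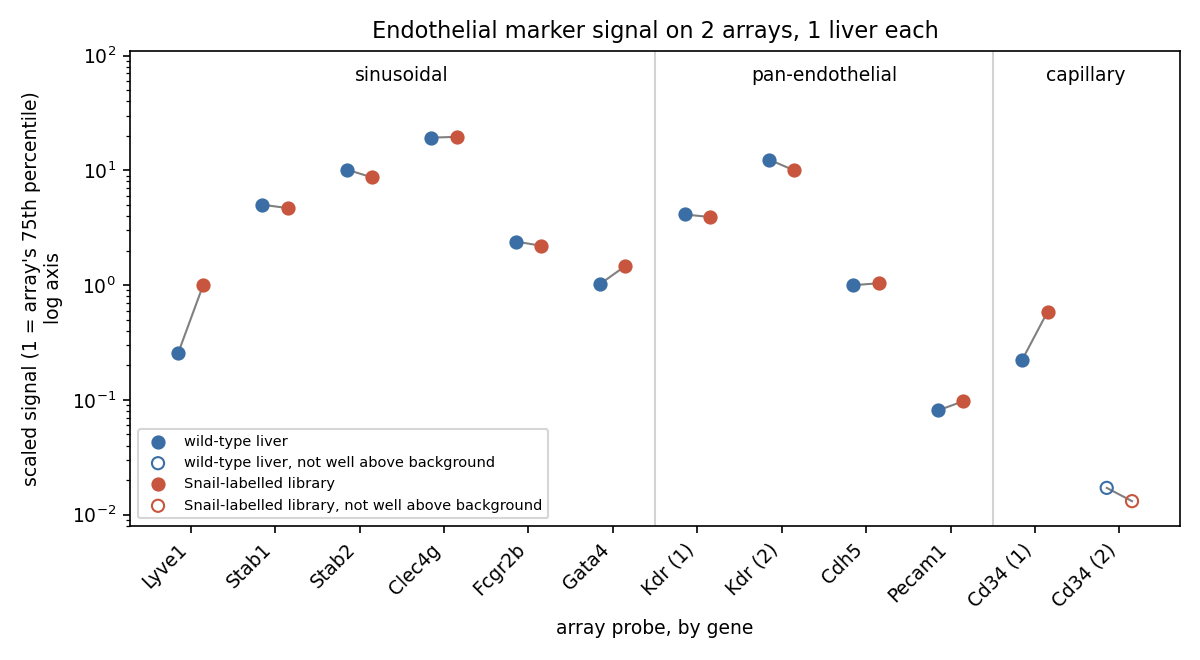
Scaled signal (log axis, 1 is the 75th percentile of the array) of the 12 endothelial marker probes in wild-type liver and in the Snail-labelled library, 1 array each, with open points for a probe not well above background. The pairs of Lyve1 (0.254 and 1.01) and of the first Cd34 probe (0.224 and 0.587) are the steepest, and most others are nearly level.

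Lyve1 encodes a hyaluronan receptor of sinusoidal and lymphatic endothelium. Its scaled signal was 0.254 in wild-type liver against 1.01 in the Snail-labelled library. The Snail-labelled library was thus the higher one, by a log2 difference of 1.99, or 3.98-fold, beside a technical spread of 0.18. Its unscaled signals, 59.0 and 304.8, were 4.27 and 23.6 times the lowest signal well above background on the same array. With normexp background correction, which shrinks differences of dim probes, the log2 difference was 1.33.

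Lyve1 is also a marker of lymphatic vessels, and the other lymphatic markers are given beside it. Of 6 lymphatic markers fixed as a list, 4 were measured and 0 were 2-fold apart, with summed scaled signals of 0.834 in wild-type liver against 0.702 in the Snail-labelled library. Prox1, the transcription factor of lymphatic identity that hepatocytes also express, had a log2 difference of 0.03. The chemokine gene Ccl21a had -0.62, the VEGF-C receptor gene Flt4 0.35, which turned to -0.06 with normexp, and Reln, which stellate cells share, -0.79. Pdpn and Mmrn1 did not clear the background on either array. The part of lymphatic vessels in the Lyve1 value was not tested.

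The other scavenger and lectin receptors of the sinusoid were nearly the same in both livers. Stab1 encodes stabilin-1, a scavenger receptor of endothelium and macrophages, and its scaled signal was 5.01 in wild-type liver against 4.68 in the other liver, with a log2 difference of -0.10. Stab2, whose product is the main hyaluronan clearance receptor of the sinusoid, had scaled signals of 10.1 and 8.66, a log2 difference of -0.23. Clec4g encodes the lectin LSECtin and had scaled signals of 19.3 and 19.6, a log2 difference of 0.02. Once scaled, the stabilins were thus slightly lower and Clec4g level, and none of these came near 2-fold. With other scaling these log2 differences stayed small, but that of Stab1 turned to 0.005 in the authors' value table. Unscaled, Stab1 had 1166 in wild-type liver against 1414 in the other, and Stab2 had 2359 against 2617. The sign of the stabilin differences therefore rests on the arrays being scaled. Under the 9 other ways of processing, Stab2 was below 0 in all 9 and Stab1 in 8.

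Fcgr2b encodes the inhibitory Fc gamma receptor, which on sinusoidal endothelium removes immune complexes from blood. Its probe was printed 10 times on each array. In wild-type liver the scaled signals of the 10 spots ran from 2.24 to 2.63, with a mean of 2.40 ± 0.102 (SD over spots). In the Snail-labelled library they ran from 2.12 to 2.33, with a mean of 2.20 ± 0.0782. The ranges overlapped, and all 10 spot differences were below 0, from -0.17 to -0.04, with a mean of -0.12 and an SD of 0.05. Unscaled, the spots ran from 521.1 to 611.1 on the wild-type array and from 639.4 to 704.3 on the Snail-labelled one, the array with the higher 75th percentile, so the sign of this small difference rests on the scaling. Spots of a probe measure the same RNA, so this shows the precision of the array and not the spread between mice. The mean was between -0.121 and -0.044 under the 9 other ways of processing that were tried.

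Fcgr2b is also expressed by B cells and macrophages, and its Fc receptor relatives did not show a 2-fold difference. The list of 5 held the receptor genes Fcgr1, Fcgr3 and Fcgr4, the signalling chain gene Fcer1g and the IgG transporter gene Fcgrt. Their log2 differences ran from 0.17 to 0.26, all above 0, with a median of 0.22. With normexp 1 of the 5 was below 0. Of 8 B cell markers 3 were measured, Cd79a at -0.77, Cd79b at 0.48 and Ms4a1 at 1.24 (0.38 with normexp), while Pax5, the defining transcription factor, did not clear the background on either array. Cr2 cleared it on the Snail-labelled array alone, 1.62-fold higher once scaled, with unscaled signals of 18.8 (wild-type) and 39.5 (Snail-labelled). Over the measured B cell markers the summed scaled signal was 0.873 in wild-type liver against 1.24 in the other.

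Gata4 lay between the level receptors and the markers that were 2-fold higher. Its scaled signal was 1.02 in wild-type liver against 1.47 in the Snail-labelled library, a log2 difference of 0.52, or 1.44-fold, beside a technical spread of 0.06. The difference was from 0.495 to 0.598 under the 9 other ways of processing. Stellate cells express Gata4 as well, and their markers were lower: of 9 fixed stellate markers 8 were measured, all 8 were below 0, and 1, the retinol acyltransferase gene Lrat, was just past 2-fold, at -1.01, and at -0.64 with normexp. The stellate median was -0.82, and the summed scaled signal was 11.0 in wild-type liver against 6.35 in the Snail-labelled library. Of 7 other GATA factors and cofactors 3 were measured: Gata6 had a log2 difference of 0.69, Zfpm1, a GATA cofactor, 0.24 and Gata5 -0.66. Gata2, a factor of endothelium and blood, was well above background on the Snail-labelled array alone, at least 1.23-fold higher. Gata1, Gata3 and Zfpm2 did not clear the background on either array.

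**Figure D2:**
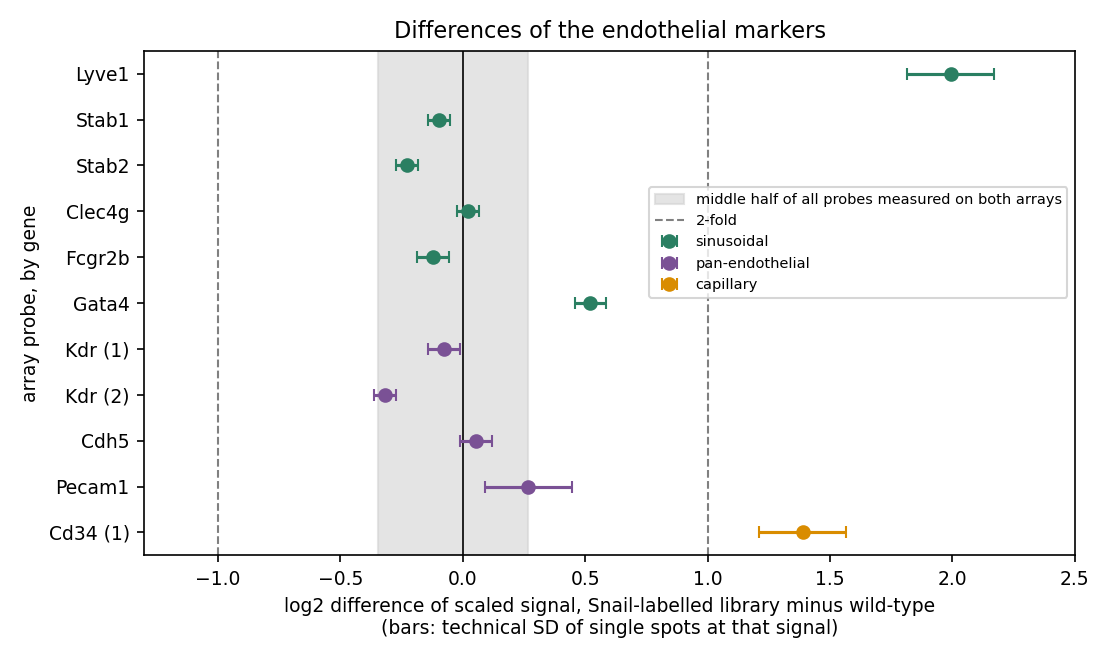
Log2 difference of scaled signal (Snail-labelled library minus wild-type, 1 array each) for the 11 marker probes measured on both arrays, with the technical SD of single spots at that signal as the bar, the interquartile range of all measured probes in grey and 2-fold as dashed lines. Lyve1 at 1.99 and Cd34 at 1.39 lie past 2-fold, Gata4 lies at 0.52, and the remaining probes lie between -0.32 and 0.27.

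The markers of all endothelium bear on whether the amount of endothelial RNA differed. Kdr encodes VEGF receptor 2, the main signalling receptor for VEGF-A. The 10 spots of its probe 1 had scaled signals from 3.79 to 4.37 in wild-type liver, with a mean of 4.13 ± 0.171 (SD over spots), and from 3.74 to 4.12 in the Snail-labelled library, with a mean of 3.92 ± 0.115. The ranges overlapped, and the mean log2 difference was -0.08, with an SD of 0.03 over spots. Kdr probe 2 had scaled signals of 12.4 and 9.96, a log2 difference of -0.32. Both probes were thus lower once scaled, and they differed from each other by 0.24, more than the technical spread. The mean of their log2 differences, the value of the gene, was -0.20. Unscaled, probe 1 had 960.1 in wild-type liver against 1182 in the other, and probe 2 had 2887 against 3009. The sign of the Kdr difference therefore rests on the arrays being scaled, and it was below 0 under all 9 other ways of processing.

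**Figure D3:**
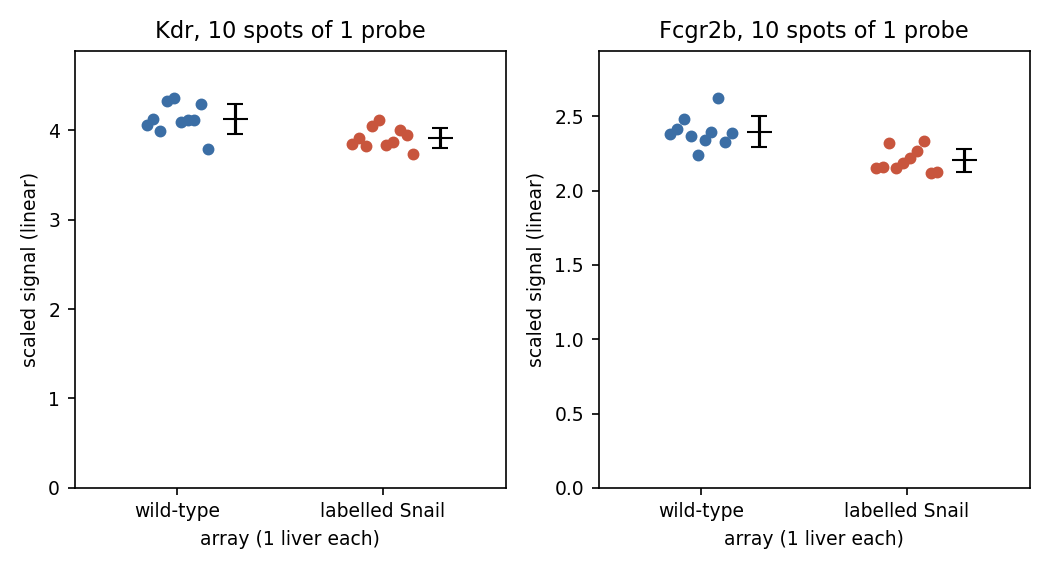
Scaled signal (linear axis from 0) of the 10 spots of Kdr probe 1 and of the 10 spots of the Fcgr2b probe on each array, with the mean and SD over spots. The spots of each array overlap for both genes, with means of 4.13 and 3.92 for Kdr and 2.40 and 2.20 for Fcgr2b.

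Cdh5 encodes VE-cadherin, the adherens junction protein of endothelium. Its scaled signal was 0.998 in wild-type liver against 1.04 in the Snail-labelled library, a log2 difference of 0.05, within the technical spread of 0.06. Pecam1, an adhesion molecule of endothelium, platelets and leukocytes, had scaled signals of 0.0808 and 0.0972, a log2 difference of 0.27. Its unscaled signals, 18.8 and 29.4, were only 1.36 and 2.28 times the lowest signal well above background, and the technical spread at such signals was 0.18. With normexp the Pecam1 value turned to -0.13, and under the stricter filter on dim probes it had none. Of 8 platelet markers only Pf4 was measured on both arrays, with a log2 difference of 0.60 and scaled signals of 0.515 and 0.783. Ppbp, Gp1bb, Gp9 and Treml1 cleared the background on the Snail-labelled array alone, and Itga2b, Gp1ba and Gp6 on neither. Ppbp was 2.17-fold higher and Treml1 at least 1.34-fold higher, while Gp1bb and Gp9 had no fold. The part of platelets in the Pecam1 value was not tested. The median of the 3 pan-endothelial markers was 0.05.

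Cd34 encodes a sialomucin of capillary endothelium and blood progenitors. Its probe 1 had a scaled signal of 0.224 in wild-type liver against 0.587 in the Snail-labelled library. The Snail-labelled library was the higher one, by a log2 difference of 1.39, or 2.62-fold, beside a technical spread of 0.18. Probe 2 did not clear the background on either array, with unscaled signals of 3.98 and 3.95, and carries no value. Of the 9 alternatives, 2 brought Cd34 below 2-fold: with normexp its log2 difference was 0.77, and with no filter on dim probes, where the dim probe 2 enters the mean, it was 0.46.

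Blood progenitors and mesothelium can also hold Cd34 transcripts. Among the progenitor markers, the homeobox gene Meis1 had a log2 difference of 1.07, with unscaled signals of 164.3 and 447.9. The receptor gene Kit had -0.50, with unscaled signals of 63.2 and 58.0. Flt3, Gfi1b and Myb did not clear the background on either array, and Mecom only in the Snail-labelled library, without a fold. Of 6 mesothelial markers only Msln was measured, at -0.47 with scaled signals of 0.177 and 0.127, while Upk3b, Upk1b, Wt1, Gpm6a and Krt19 did not clear the background on either array. The part of progenitors in the Cd34 value was not tested, nor was that of B cells in the Fcgr2b value.

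Set against the sinusoidal markers, Cd34 was further from wild-type than 5 of the 6. The median log2 difference of the 6 sinusoidal markers was -0.04, and Cd34 exceeded it by 1.43, or 2.69-fold, a quantity that does not depend on how the arrays were scaled by a constant. Cd34 exceeded Stab2 by 1.62, Fcgr2b by 1.51, Stab1 by 1.49, Clec4g by 1.37 and Gata4 by 0.87. It was below Lyve1 by 0.60. Lyve1 exceeded the other sinusoidal markers by 1.47 for Gata4 up to 2.22 for Stab2, so the sinusoidal set did not move as one, and without Lyve1 its median was -0.10. The excess of Cd34 over the sinusoidal median was 0.73 with normexp and 0.50 with no filter on dim probes.

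**Figure D4:**
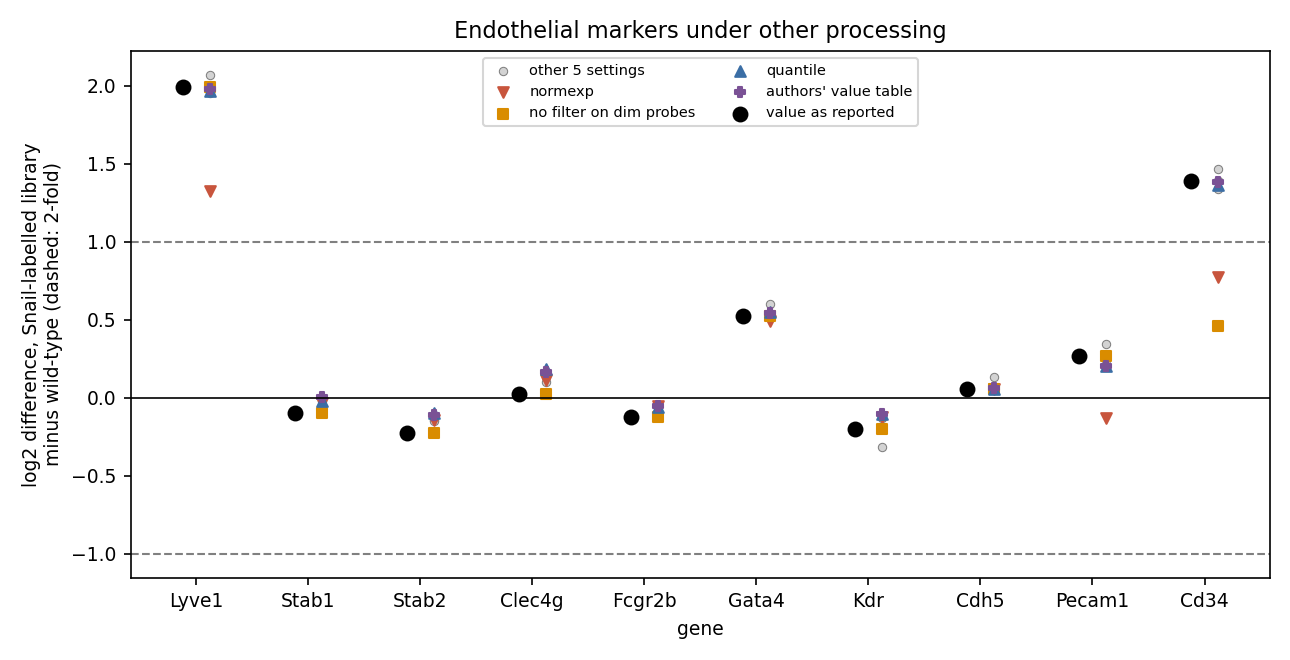
Log2 difference (Snail-labelled library minus wild-type) of each of the 10 genes as reported (black) and under 9 other ways of processing, with dashed lines at 2-fold. Lyve1 stays above 2-fold throughout, from 1.33 to 2.07, Cd34 falls to 0.77 with normexp and 0.46 with no filter on dim probes, and the Pecam1 value changes sign with normexp.

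Other genes of the same cells were counted from fixed lists. Each list count is to be read beside the shares over all measured genes, 3.98% past 2-fold upwards and 6.33% downwards. The lists were chosen with earlier results of these data known, so a count that differs from these shares is no test. Of 12 other sinusoidal genes all 12 were measured, with 1 past 2-fold upwards, 0 downwards and a median of 0.08. The one past 2-fold was Maf, a transcription factor gene of sinusoidal endothelium and macrophages, at 2.06-fold, and with no filter on dim probes its log2 difference was 0.88, below 2-fold. The mannose receptor gene Mrc1 had a log2 difference of 0.07, the DNase gene Dnase1l3 -0.13, the orphan receptor gene Gpr182 0.10 and the coagulation factor gene F8 0.17. Bmp2, an endothelial signal for hepcidin, had -0.33 and Plxnc1 -0.56. Tfec had 0.87, with unscaled signals of 16.4 and 38.9, and -0.04 with normexp. With normexp only 4 of the 12 were above 0, against 8 as reported. The median of this list turned to -0.07 with normexp and to -0.03 under the stricter filter.

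Of 31 further pan-endothelial genes 29 were measured and 0 were 2-fold apart in either direction. Their median was 0.18, and 21 of the 29 were above 0. The sphingosine phosphate receptor gene S1pr1 was 1.69-fold higher, the flow-responsive factor Klf4 1.72-fold, Clec14a 1.58-fold and the junction gene Esam 1.47-fold. The transcription factor gene Sox7 was 1.55-fold lower. Robo4 had a log2 difference of 0.28, the tight junction gene Cldn5 -0.21, the nitric oxide synthase gene Nos3 -0.18 and Eng, which encodes the coreceptor endoglin, 0.06. The Tie2 gene Tek was well above background on the Snail-labelled array alone, at least 1.50-fold higher. Their summed scaled signal was 57.0 in wild-type liver against 65.4 in the other. The list held no gene past 2-fold under any of the 9 alternatives, and the dim genes moved most: the log2 difference of Klf4 was 0.25 with normexp, against 0.79 as reported, and that of Clec14a 0.09 with no filter, against 0.66.

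Of 15 genes of continuous capillaries and basement membrane 9 were measured, of which 4 were 2-fold or more up and 1 was 2-fold or more down. The median log2 difference was 0.92. Over all measured genes 3.98% were 2-fold higher and 6.33% were 2-fold lower, with a median of -0.03. This list was chosen with earlier results of these data known, so those shares are not a test of it. Esm1, a proteoglycan gene of sprouting endothelium, was 24.0-fold higher, with unscaled signals of 21.6 in wild-type liver against 673.0 in the Snail-labelled library. Ly6a, which encodes the surface protein Sca-1 of capillaries and progenitors, was 13.1-fold higher, with signals of 423.5 and 7179. Both were higher in the Snail-labelled library under every alternative that gave a value, from 2.91 to 4.66 for Esm1 and from 3.65 to 3.83 for Ly6a on the log2 scale.

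Nid1, which encodes the basement membrane protein nidogen-1, was 5.89-fold higher by 1 of its 3 probes, with signals of 199.8 and 1528, and its other probes were well above background on the Snail-labelled array alone. Ly6c1, shared by endothelium and monocytes, was 2.90-fold higher, but its probes disagreed, at 0.98 and 2.08, and near-identical genes of the Ly6 cluster can share its signal. The laminin gene Lama4 was 1.89-fold higher, with a log2 difference of 0.40 under normexp, while the laminin gene Lamb1 was 1.68-fold lower. Plvap, a diaphragm protein gene of fenestrae and caveolae, was 1.82-fold lower, at -0.71 and -1.01 by its 2 probes.

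Mcam, an adhesion molecule gene of endothelium and pericytes, was 2.06-fold lower by 1 of 2 probes. That probe had signals of 18790 in wild-type liver against 11830 in the Snail-labelled library. The other Mcam probe did not clear the background on either array. Mcam was past 2-fold under 3 of the 9 alternatives, and which cells gave so bright a signal was not tested. The von Willebrand factor gene Vwf had a log2 difference of 0.11. The capillary markers Apln, Aplnr, Podxl, Cav1 and Entpd1 did not clear the background on either array, and Emcn only in the Snail-labelled library, at least 1.22-fold higher. The genes of this list thus lay on both sides of 0. The median was 0.40 with normexp, 0.11 under the stricter filter and -0.48 with no filter, where the median of all genes was also -0.48.

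**Figure D5:**
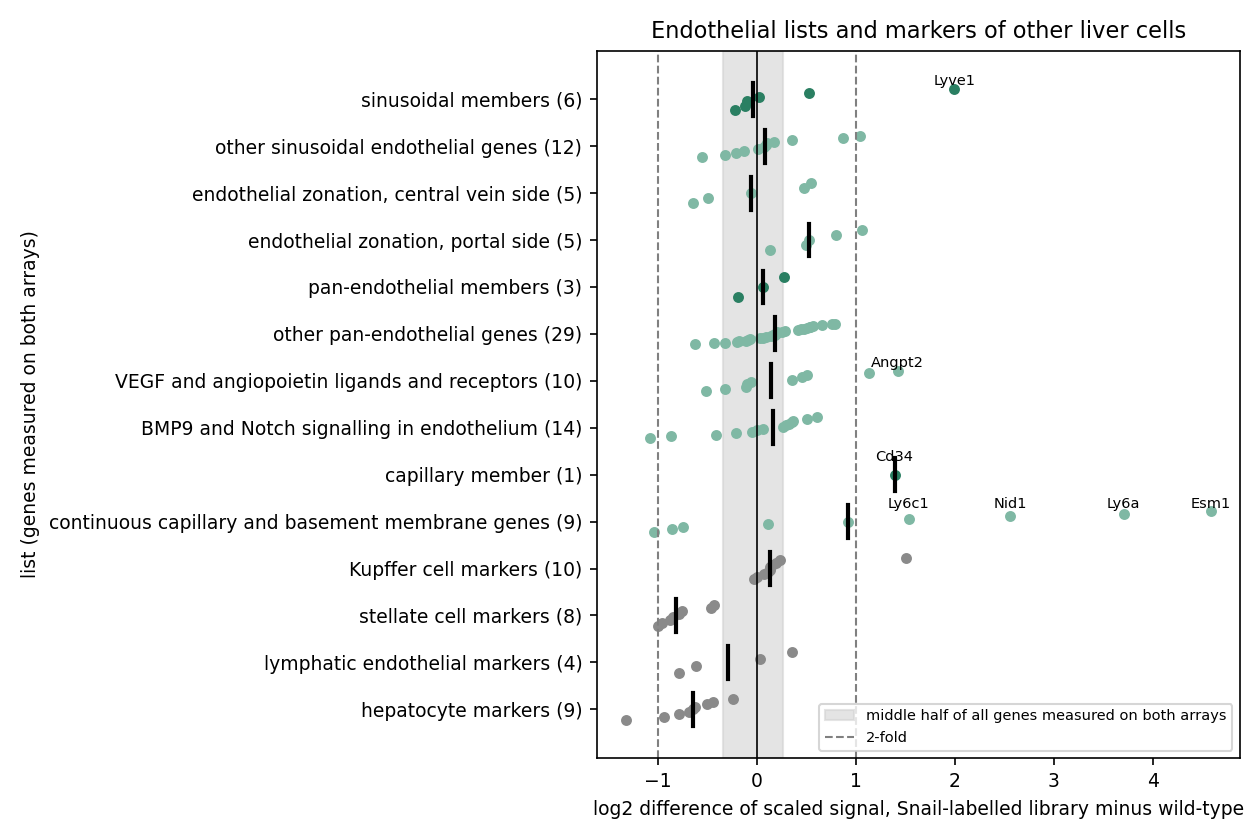
Log2 difference of scaled signal (Snail-labelled library minus wild-type, 1 array each) of every gene measured on both arrays in 14 lists, 1 point per gene, with the list median as a black bar, the interquartile range of all measured genes in grey and 2-fold as dashed lines. The sinusoidal and pan-endothelial lists are centred near 0 (medians from -0.04 to 0.18), the capillary list spreads from -1.04 to 4.58, and the stellate list lies below 0 (median -0.82).

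Endothelial genes that differ between the portal and the central side of the lobule were counted next. On the portal side 5 of 7 genes were measured, all 5 were above 0 and 1 was past 2-fold, around a median of 0.53. Ntn4, which encodes the matrix protein netrin-4, was 2.09-fold higher, the ephrin gene Efnb2 1.74-fold, the arterial factor Sox17 1.44-fold and Ltbp4 1.41-fold. Clu, at 1.09-fold, is also made by hepatocytes. Ntn4, Efnb2 and Sox17 were dim, with wild-type signals of 15.7, 29.3 and 20.6, and with normexp the log2 differences of Ntn4 and Sox17 were 0.13 and 0.02, and with no filter that of Efnb2 was 0.16. The portal median was 0.21 with normexp, 0.31 on the 2 genes left by the stricter filter and 0.19 with no filter, where 1 of 7 was below 0. The Notch ligand gene Dll4 was well above background on the Snail-labelled array alone, at least 1.14-fold higher, and Gja5 on neither array.

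On the central side 5 of 7 genes were measured, 2 were above 0 and none was 2-fold apart, with a median of -0.07. Rspo3, a Wnt enhancer from central vein endothelium, was 1.57-fold lower and Kit 1.42-fold lower, while Thbd, which encodes thrombomodulin, was 1.46-fold higher and Fabp4 1.39-fold higher. Cdh13 was 1.05-fold lower. Thbd had a log2 difference of 0.20 with normexp, and the central median turned to 0.012 with the percentile over spots well above background. Wnt9b was well above background on the Snail-labelled array alone, at least 1.11-fold higher, and so was Wnt2, without a fold.

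Among the ligands and receptors of the VEGF and angiopoietin pathways 10 of 13 genes were measured, with 2 past 2-fold upwards and 0 downwards. Vegfa, the main ligand of KDR, had a log2 difference of -0.07, Vegfc -0.11 and Vegfd 0.46. Vegfb, a ligand of FLT1, was 2.19-fold higher, with signals of 255.3 and 725.6, and was past 2-fold under all 9 alternatives. Angpt2, which antagonizes TIE2 and is made by endothelium, was 2.67-fold higher from dim signals of 14.2 and 49.3, and 0.29 on the log2 scale with normexp. Of the receptors, Flt1 had -0.33, Nrp1 -0.10, Nrp2 -0.52 and Tie1 0.50, so receptors and ligands did not move one way. Vegfd and Tie1 were dim, and with normexp they had 0.07 and 0.04. Pgf and Angpt1 did not clear the background on either array. The list median of 0.14 turned to -0.02 with normexp, -0.11 under the stricter filter and -0.07 with no filter.

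BMP9, the product of Gdf2, comes from stellate cells and acts on endothelium through ALK1. In the list of BMP9 and Notch signalling 14 of 18 genes were measured, with 0 past 2-fold upwards, 1 downwards and a median of 0.16. That one was Gdf2, at 2.13-fold lower, with signals of 360.9 and 220.3, and with normexp its log2 difference was -0.86. The ALK1 gene Acvrl1 had a log2 difference of 0.27, Bmpr2 0.36, and the target genes Smad6, Smad7, Id1 and Id3 had 0.32, 0.60, 0.30 and 0.51, while Id2 had -0.87. Of the Notch genes, Notch1 had -0.42, Notch4 0.35, Jag1 -0.003 and Hes1 -0.05, and Hey1 was well above background on the Snail-labelled array alone, at least 2.03-fold higher. Bmp10 and Hey2 did not clear the background on either array.

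Adhesion molecules that take part in leukocyte binding to endothelium were also counted. Of 8 genes 4 were measured, of which Vcam1 was 2.45-fold higher and past 2-fold under 8 of the 9 alternatives, with a log2 difference of 0.71 under normexp. Icam2 had a log2 difference of -0.09 and Madcam1 0.15, while the probes of Selplg disagreed, at 0.23 and -0.52. Icam1, Sele, Selp and Aoc3 did not clear the background on either array.

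Markers of the other main liver cells moved as follows. Of 10 Kupffer cell markers, a cell type that shares Stab1, Mrc1 and Maf with sinusoidal endothelium, all 10 were measured and 9 were above 0, with a median of 0.13. The scavenger receptor gene Marco was 2.83-fold higher, while Clec4f had a log2 difference of 0.15 and Vsig4 0.07. The 3 probes of Csf1r disagreed, at -0.76, 0.26 and 0.41. Over the 10 markers the summed scaled signal was 77.1 in wild-type liver against 91.7 in the other. Of 10 hepatocyte markers 9 were measured, all 9 were below 0 and 1, Tat, was past 2-fold, around a median of -0.65 and summed scaled signals of 4868 and 3139. The hepatocyte median was -0.265 both with quantile normalization, where 2 of the 9 were above 0, and in the authors' value table, where 3 were. The part of these cells in the endothelial values was not tested.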

How the data were processed

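The deposited scanner files come from Agilent's Feature Extraction software 9.5.1.1, per the file headers. Their intensity values were background-subtracted and detrended within each array, per the file headers. The 2 arrays carry the same slide barcode and scan time in the headers. Of 43020 non-control spots, 50.7% (wild-type) and 54.0% (Snail-labelled) cleared the background, and 0 were saturated. The authors' deposited value table holds intensity values of the same arrays, linear and each following its own array (correlation of log2 values 1.00), both with a median of 17.3. The sources used here do not give its scaling or centring.

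In Python 3.11.15, 287 spots with an outlier mark were left out, and each array's 75th percentile was subtracted from the log2 processed signals. Repeat spots were averaged as log2 values, and then those probes of a gene that cleared the background on both arrays. Where 1 array was dim, the fold was taken against the higher of that probe's signal and the lowest signal well above background. It is a bound, written as at least, only where that lowest signal was used. For genes outside the 10 markers, probes were named through RefSeq accessions of GRCm38.p6 (66.1% of probes), otherwise by the files' name. The scripts were tested on simulated data.

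The 10 genes and the 20 other lists were chosen with earlier results of these data known. The text names all 10 markers, and of each endothelial list the 5 measured genes furthest from 0, those with only a bound, and other members as examples; of other cell markers any may be named. The lists share 10 genes, and Tf and Hbb-b1 matched no probe. Some list members are not reported here. Alternatives were normexp (limma 3.58.1, offset 50), quantile and loess normalization, another percentile base, the authors' table, a signal of at least 50 on both arrays, no filter, the brightest probe, and outlier spots kept. Applying them to the lists was decided after seeing the data. The number of arrays limits the precision.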

Additional observations from a re-analysis of the deposited data

How the results depend on the processing

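The 9 alternatives were applied to the 10 markers. The number of genes at least 2-fold higher was 2, and it was 1 with normexp and 1 with no filter on dim probes, where Cd34 fell below 2-fold and Lyve1 did not. The number at least 2-fold lower was 0 under every alternative. The median log2 difference of the 6 sinusoidal markers, -0.04, was 0.041 with normexp, 0.081 with quantile normalization, 0.045 with loess, 0.039 with the percentile over spots well above background and 0.085 in the authors' value table, so its sign depends on the scaling. The excess of Cd34 over that median, 1.43, was 0.732 with normexp and 0.495 with no filter. Of all genes, 1.93% were past 2-fold upwards and 3.71% downwards with normexp, and 2.98% upwards under the stricter filter. Lyve1, Gata4, Clec4g and Cdh5 were above 0 and Stab2, Fcgr2b and Kdr below 0 under all 9, Pecam1 was above 0 under 7 of the 8 that gave it a value, and Stab1 was below 0 under 8 of 9. The probes of Lyve1, Pecam1 and Cd34 (probe 1) had wild-type signals under 100, where the array is least precise. No paired analysis was possible because each group is 1 array.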

Other observations

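The sinusoid also turns over hyaluronan, the ligand of Lyve1 and Stab2. Of 7 hyaluronan receptors and enzymes 4 were measured and 0 were 2-fold apart. Cd44, the hyaluronan receptor of leukocytes and many other cells, had a log2 difference of 0.76, from signals of 103.4 (wild-type) and 226.9 (Snail-labelled), by 2 of 4 probes. With no filter, where its 2 probes below background enter the mean, Cd44 had 0.14. Hmmr, a receptor tied to dividing cells, had 0.38, and 0.12 with normexp. The lysosomal hyaluronidase gene Hyal1 had -0.57 and Hyal2 -0.10. The synthase genes Has1, Has2 and Has3 were not well above background on either array.

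Red cell markers were counted as well. Of 6 such genes 3 were measured, the globin gene Hba-a1 at -0.19, Alas2 at 0.49 and Slc4a1 at -0.54, and their summed scaled signal went from 41.6 (wild-type) to 37.6 (Snail-labelled).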
